A study of Mus musculus with 7 samples.

Results

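STAT transcription factors and the inhibitors of the SOCS family were followed in macrophages sorted from injured mouse nerve. The genes were Stat2, Stat3, Stat5a, Stat6, Socs1, Socs2, Socs3 and Cish, chosen by symbol as members of the 2 families, by a rule that uses no measured value, and they are 8 of the 23361 genes in the deposited values. RNASeq was carried out on wild-type BALB/cJ mice, an inbred strain, whose left sciatic nerve had been transected and repaired at once inside a conduit. Macrophages came from the regenerative bridge, the tissue that grows in the conduit between the nerve stumps, and were sorted as lineage-negative cells positive for F4/80, CD14, CD11b and CD16/32. Days 5, 14 and 28 after repair were represented by 3, 2 and 2 libraries, so that the later time points hold fewer libraries than the study's figure legends give per group. No treatment, transgene or deletion distinguished the groups, no uninjured nerve was among the 7 libraries, and the age and sex of these mice and the number of mice per library were not given in the sources used here.

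STAT proteins wait in the cytoplasm until a cytokine binds its receptor. Kinases of the JAK family on the receptor then phosphorylate the STAT, which pairs up, enters the nucleus and binds DNA. STAT2 acts with IRF9 in the complex ISGF3 that type I interferons switch on. STAT3 carries the signals of IL6 and IL10, STAT5A those of GM-CSF and of growth hormone, and STAT6 those of IL4 and IL13, the cytokines of alternative macrophage activation. SOCS1, SOCS2, SOCS3 and CISH close the loop, since STATs switch their genes on and the proteins then block the receptor or the kinase. SOCS3 is best known for restraining signals through the IL6 receptor subunit GP130, SOCS1 those of interferons, SOCS2 growth hormone, and CISH signals that run through STAT5. The activity of a STAT depends on its phosphorylation, which RNA does not show.

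The promoters with a motif of STAT or interferon type are printed because STATs switch SOCS genes on through such motifs. RefSeq windows on GRCm38.p6 that span 250 bases before each transcript start and 50 bases from it gave 8 windows for 7 of the 8 genes, with 2 for Stat5a. Capitals mark the palindrome TTCNNNGAA that STAT dimers can bind, its longer form with 4 bases between TTC and GAA, and the interferon response type, a pair of GAAA with 2 bases between them, searched on both strands. All lines read 5′ to 3′ on the strand of the gene. The windows are chr11:117969317-117969616 (minus strand) for Socs3, chr9:107296409-107296708 (plus strand) for Cish, chr10:128270248-128270547 (plus strand) for Stat2 and chr16:10785487-10785786 (minus strand) for Socs1.
Socs3: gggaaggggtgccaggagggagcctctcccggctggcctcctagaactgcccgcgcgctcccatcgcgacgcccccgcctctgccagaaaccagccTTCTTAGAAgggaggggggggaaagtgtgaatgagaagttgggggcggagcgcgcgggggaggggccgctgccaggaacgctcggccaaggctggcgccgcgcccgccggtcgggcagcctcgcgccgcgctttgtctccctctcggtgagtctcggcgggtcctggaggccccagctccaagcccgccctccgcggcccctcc
Cish: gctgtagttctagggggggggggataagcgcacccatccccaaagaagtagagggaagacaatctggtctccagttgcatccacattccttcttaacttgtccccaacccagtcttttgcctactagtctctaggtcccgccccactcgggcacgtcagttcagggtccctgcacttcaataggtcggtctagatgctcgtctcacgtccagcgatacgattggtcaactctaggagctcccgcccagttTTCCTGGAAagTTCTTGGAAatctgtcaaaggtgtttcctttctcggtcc
Stat2: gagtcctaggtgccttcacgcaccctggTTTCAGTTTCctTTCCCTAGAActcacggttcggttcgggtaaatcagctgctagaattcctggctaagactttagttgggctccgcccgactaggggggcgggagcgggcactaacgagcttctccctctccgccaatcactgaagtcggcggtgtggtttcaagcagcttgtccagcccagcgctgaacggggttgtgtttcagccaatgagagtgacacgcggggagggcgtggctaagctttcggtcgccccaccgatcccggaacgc
Socs1: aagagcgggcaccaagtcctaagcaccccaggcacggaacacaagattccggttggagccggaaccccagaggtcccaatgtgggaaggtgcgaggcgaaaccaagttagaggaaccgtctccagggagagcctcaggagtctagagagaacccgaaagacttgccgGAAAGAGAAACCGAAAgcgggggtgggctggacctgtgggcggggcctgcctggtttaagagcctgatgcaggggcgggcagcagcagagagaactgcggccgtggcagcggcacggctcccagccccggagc

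Socs3 had the palindrome TTCTTAGAA from 154 to 146 bases before its start, which is why only those 9 letters stand in capitals. Cish had a pair, TTCCTGGAA and TTCTTGGAA, both within the first 20 bases from its RefSeq start. All such positions count from the RefSeq starts of the windows. The gene spans of Socs3 and Cish given below begin farther upstream and include these motifs. Stat2 had the palindrome TTCCCTAGAA and, 2 bases upstream of it, TTTCAGTTTC, an interferon response type match on the other strand. In Socs1, GAAAGAGAAA and GAAACCGAAA overlapped, so that they appear as a single run of capitals. A palindrome was thus present in 3 of the 8 windows, against 14.6% of 32851 promoter windows of the genome, and the interferon response type in 2 of 8, against 3.44%. Windows with at least 2 palindromes, as in Cish, made up 1.39% of the genome's. The windows of Stat3, Stat5a and Stat6 held neither kind of motif, which says only that these letters are not in these windows. A match is a description of the letters, and binding was not measured.

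On GRCm38, 3 of the 8 genes lie on chromosome 11. Stat5a, at 100859351 to 100885169 on the plus strand, and Stat3, at 100885098 to 100939540 on the minus strand, run towards each other and share 72 exonic bases at their ends, which is 0.756% of the exonic bases of Stat3 and 1.01% of those of Stat5a. The related gene Stat5b lies 8.63 kb on the other side of Stat5a with no protein-coding gene between them. Socs3 is farther along the same chromosome, at 117966079 to 117970047 on the minus strand. Stat6 (127642986 to 127660957) and Stat2 (128270559 to 128292849) are on the plus strand of chromosome 10, separated by 26 protein-coding genes, and Socs2 (95385362 to 95417180) is on the minus strand of the same chromosome. Socs1 spans 10782240 to 10785536 on the minus strand of chromosome 16, and Cish spans 107296026 to 107302784 on the plus strand of chromosome 9. Near-identical sequence can split reads between genes. Of all windows of 75 bases in the transcript, 10.2% were shared with Stat5b for Stat5a, 14.0% with other genes, chiefly the gene model Gm9847, for Socs2, and 13.2%, mostly with the antisense model Gm17041, for Cish. No such window was found for Stat2, Stat3, Stat6, Socs1 or Socs3. Values of Stat5a, Socs2 and Cish are therefore uncertain to that extent, and Cish and its antisense model cannot be told apart where reads were counted without strand.

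Between 18027190 and 35247116 fragments per library were assigned to genes. All 9 macrophage markers were detected in every library, with a summed FPKM of 16417 to 22490, most of it from Lyz2. Among the sort markers, Emr1, the gene of F4/80, was at 409.5 ± 54.2 FPKM (SD, n = 3) at day 5 and 202 ± 9.46 (SD, n = 2) at day 28, and Cd14 at 2766 ± 206 (SD, n = 3) and 1616 ± 259 (SD, n = 2). Both fell from day 5 to day 28 (log2 fold changes -1.01 and -0.76, edgeR adjusted p = 0.00650 and 0.0145). FPKM is the number of fragments per kilobase of transcript after scaling to library size. The lineage gate had excluded cells with markers such as Ly6G, Siglec F and Thy1.2, and transcripts listed as markers of other cell types were still seen. The 5 neutrophil markers summed to 260 to 289 FPKM at day 5 and 528 to 538 at day 14. At day 28 their sum was 119 to 262. Most of it came from S100a8 and S100a9, while Mpo was at 0.0207 to 0.199 FPKM. Retnlg and Cxcr2 lay between, at 8.24 to 28.0 and 1.70 to 6.50 FPKM. Whether these transcripts came from neutrophils was not tested. The 6 T and NK cell markers stayed between 0.237 and 1.43. The 4 endothelial markers summed to 14.6 to 26.2 FPKM at day 5, 7.24 to 13.4 at day 14 and 3.66 to 6.49 at day 28, with no overlap between the days. The 2 libraries of day 14 differed from each other, with 7 fibroblast markers at 223 FPKM in replicate 1 and 81.2 in replicate 2, against 28.8 to 74.1 at day 5 and 35.6 to 57.0 at day 28. In the same order, 4 eosinophil markers summed to 5.69 and 1.72, and 4 dendritic cell markers to 9.52 and 3.63. No marker on any list was at 0 in all libraries. In sorted cells measured in bulk, fewer cells of a type and less RNA per cell cannot be told apart. The study's legends give group sizes in mice, but no source used here ties a library to a single mouse or a pool, so that p-values measure the spread between these libraries, which may be technical.

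Levels of the 8 genes spanned a wide range. Socs3 was the most abundant at every time point, with a mean over the 7 libraries above 98.9% of the 12858 genes tested, and Socs2 and Cish were the least abundant. At day 5, FPKM fell in the order Socs3, Stat3, Stat6, Stat2, Socs1, Stat5a, Cish and Socs2, and only the neighbours Stat2 and Socs1 overlapped in their libraries. At day 14, Stat3 and Stat6 overlapped, as did Stat2 with Stat5a, Stat5a with Socs1, and Cish with Socs2. At day 28, Stat6 stood above Stat3 with no overlap, the reverse of day 5, while Stat2 overlapped Stat5a and Cish overlapped Socs2. Together, the 8 genes took 0.226% to 0.309% of all fragments at day 5, 0.312% and 0.153% in replicates 1 and 2 of day 14, and 0.130% and 0.149% at day 28.

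**Figure D1:**
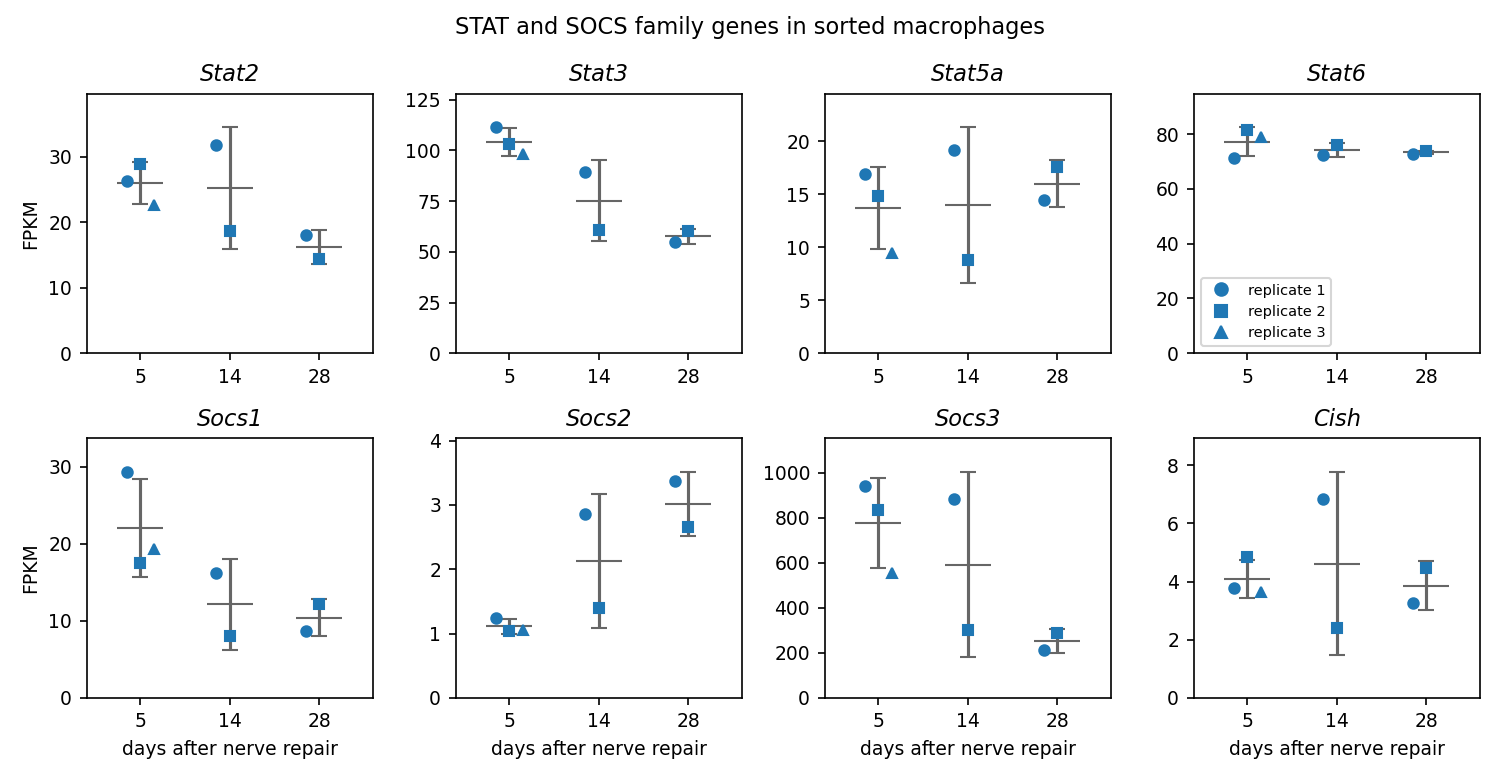
FPKM of each gene (y axis, linear, from 0) against days after nerve repair (x axis), with 1 point per library, a horizontal line for the mean and bars for 1 SD (n = 3 at day 5, n = 2 at days 14 and 28). Stat3 and Socs3 were lower at day 28 than in all day 5 libraries, Socs2 was higher, Stat6 was level, and day 14 replicates 1 and 2 lay far apart for Socs3, at 882 and 301.

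Expression was compared pairwise between the time points with edgeR on the estimated fragments, with p-values adjusted over all genes. Between days 5 and 28, 3 of the 8 genes passed an adjusted p of 0.05, against 15.2% of the 12858 genes tested. Stat3 and Socs3 fell, in a comparison where 7.51% of all genes fell, and Socs2 rose, where 7.74% rose. The endothelial markers Pecam1 and Kdr and the sort markers Emr1, Cd14, Itgam and Fcgr2b were also lower at day 28. Cdh5 overlapped, while Tek and the sort marker Fcgr3 were higher. The part of these markers in the results was not tested. Between days 5 and 14, 0 of 8 passed with edgeR, DESeq2 or limma, against 4.78% of all genes with edgeR, and 3 of 8 had an unadjusted p under 0.05, against 24.0% of all genes. Between days 14 and 28, 0 of 8 passed with each of the 3 tools, against 0.0622% of all genes with edgeR, with 2 of 8 under 0.05 unadjusted, against 12.2% of all genes. The median log2 fold change of all genes was 0.03, 0.03 and 0.01 in these comparisons. FPKM values of days 5 and 28 did not overlap for 5 of the 8 genes, but that was also so for 51.5% of all genes tested. The same held for 3 of 8 between days 5 and 14, against 43.2%, and for 3 of 8 between days 14 and 28, against 39%.

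Stat3, the factor of IL6 and IL10 signalling, was the STAT with the clearest change. Its FPKM was 111, 103 and 98.0 in the day 5 libraries, 89.4 and 60.9 at day 14, and 54.9 and 60.2 at day 28. Each day 14 library lay below every day 5 library, and the day 28 libraries lay below both. Means were 104 ± 6.71 (SD, n = 3) at day 5, 75.2 ± 20.1 (SD, n = 2) at day 14 and 57.5 ± 3.80 (SD, n = 2) at day 28. From day 5 to day 28 the log2 fold change was -0.84 (SE 0.17, edgeR adjusted p = 0.0114). The call was lost without day 28 replicate 1 (adjusted p = 0.0977) or without day 28 replicate 2 (0.0510), and was kept without any other single library. The first step, from day 5 to day 14, had a log2 fold change of -0.46 (SE 0.16, edgeR adjusted p = 0.127), and the second -0.38 (SE 0.18, edgeR adjusted p = 0.427).

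Stat2, the interferon-side STAT, was at 26.4, 28.9 and 22.6 FPKM at day 5, 31.8 and 18.7 at day 14, and 18.1 and 14.4 at day 28. The day 28 libraries were the lowest of the 7, and the 2 libraries of day 14 enclosed those of day 5. The log2 fold change from day 5 to day 28 was -0.66 (SE 0.22, edgeR adjusted p = 0.0702), which missed the threshold. DESeq2 placed it below the threshold (adjusted p = 0.0163), as did edgeR without day 14 replicate 1 or without day 14 replicate 2.

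Stat6, the STAT of IL4 and IL13, was level. Its 7 values were 71.4, 81.5 and 78.9 FPKM at day 5, 72.5 and 75.9 at day 14, and 72.9 and 73.8 at day 28. The highest library was 1.14 times the lowest, the narrowest range of the 8 genes. Log2 fold changes against day 5 were -0.05 (SE 0.11) at day 14 and -0.06 (SE 0.11) at day 28, with edgeR adjusted p-values of 0.828 and 0.748.

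Stat5a, which acts below the GM-CSF receptor, was at 16.9, 14.8 and 9.43 FPKM at day 5, 19.2 and 8.79 at day 14, and 14.4 and 17.6 at day 28. The 3 time points overlapped throughout, and the largest spread was within day 14. The log2 fold change from day 5 to day 28 was 0.25 (SE 0.31, edgeR adjusted p = 0.621). Its neighbour Stat5b, which shares part of its sequence, was at 12.5 to 15.3 FPKM in all 7 libraries, with a log2 fold change from day 5 to day 28 of -0.12 (SE 0.10, edgeR adjusted p = 0.443).

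Socs3, the inhibitor of GP130 signals, showed the largest fall of the 8 genes. It was at 940.0, 833 and 553 FPKM at day 5, 882 and 301 at day 14, and 213 and 288 at day 28, and rested on 14007 to 57791 fragments in a library. Both day 28 libraries were below all others, and the 2 day 14 libraries sat at opposite ends, replicate 1 among the day 5 values and replicate 2 near those of day 28. Means were 775 ± 199.6 (SD, n = 3), 592 ± 411 (SD, n = 2) and 251 ± 53.0 (SD, n = 2) in order of time. The log2 fold change from day 5 to day 28 was -1.62 (SE 0.41, edgeR adjusted p = 0.0291), and 1.77% of all genes tested had a lower one. The call was lost without day 5 replicate 1 (adjusted p = 0.0920), day 5 replicate 2 (0.0770), day 28 replicate 1 (0.199) or day 28 replicate 2 (0.0952). From day 14 to day 28 the log2 fold change was -1.23 (SE 0.43, edgeR adjusted p = 0.294).

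Socs1, the inhibitor on the interferon side, stood at 29.3, 17.5 and 19.3 FPKM at day 5, 16.3 and 7.98 at day 14, and 8.69 and 12.1 at day 28. All later libraries lay below those of day 5, while days 14 and 28 overlapped. The log2 fold change against day 5 was -0.87 (SE 0.33, edgeR adjusted p = 0.147) at day 14 and -1.06 (SE 0.33, edgeR adjusted p = 0.0585) at day 28. Neither passed with edgeR, and the second passed with DESeq2 (adjusted p = 0.00747) and with edgeR without day 14 replicate 1 or without day 14 replicate 2.

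Socs2, the inhibitor tied to growth hormone, moved the other way at a low level. Its FPKM was 1.25, 1.04 and 1.05 at day 5, 2.86 and 1.40 at day 14, and 3.37 and 2.66 at day 28, and rested on only 43 to 263 fragments in a library. Every later library was above every day 5 library. Means were 1.11 ± 0.120 (SD, n = 3), 2.13 ± 1.04 (SD, n = 2) and 3.01 ± 0.50 (SD, n = 2). The log2 fold change from day 5 to day 28 was 1.45 (SE 0.33, edgeR adjusted p = 0.0193). Without day 5 replicate 1, 2 or 3 the adjusted p was 0.0568, 0.0659 and 0.0614, and without day 28 replicate 1 it was 0.145, so that the call was lost in 4 of 7 cases.

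Cish, an inhibitor of STAT5 signals, was at 3.79, 4.83 and 3.63 FPKM at day 5, 6.85 and 2.39 at day 14, and 3.27 and 4.45 at day 28. The highest and the lowest of its 7 libraries were both from day 14. Cish rested on 105 to 248 fragments in a library. The log2 fold change from day 5 to day 28 was -0.07 (SE 0.38, edgeR adjusted p = 0.915), and no difference was detected with this number of libraries.

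**Figure D2:**
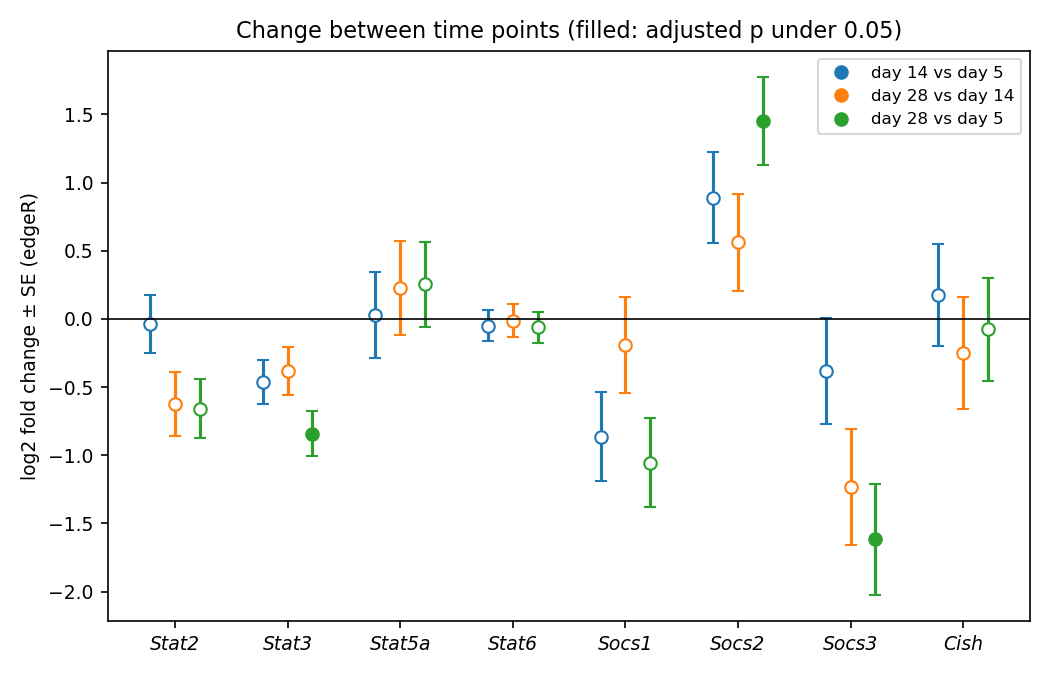
Log2 fold change by edgeR (y axis) for each gene (x axis) in the 3 pairwise comparisons, with bars of 1 SE and filled points where the adjusted p was under 0.05. The 3 filled points are Stat3 (-0.84), Socs2 (1.45) and Socs3 (-1.62), all from day 28 vs day 5.

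The 2 libraries of day 14 disagreed for most of these genes. Log2 CPM, the fragments scaled to library size on the log2 scale, was higher in replicate 1 than in replicate 2 by 1.54 for Socs3, 1.49 for Cish, 1.11 for Stat5a, 1.02 for Socs1, 0.95 for Socs2, 0.75 for Stat2 and 0.54 for Stat3, and lower by a difference of -0.08 for Stat6. A gap above 0.5 was thus found for 7 of 8 genes, and for 15.3% of all genes tested, whose median gap was -0.01. The marker sums of fibroblasts, eosinophils, dendritic cells, endothelial cells, T and NK cells, B cells and mast cells were also higher in replicate 1. Those of macrophages (17625 against 22490 FPKM), Schwann cells (12.7 against 19.9) and neutrophils (528 against 538) were lower in replicate 1. The part of these differences in the result was not tested. Each step of the time course depended on which of these libraries was used. Without day 14 replicate 1, Stat3 (log2 fold change -0.76, edgeR adjusted p = 0.00655), Socs1 (-1.46, 0.0135) and Socs3 (-1.35, 0.00903) passed between days 5 and 14. Without day 14 replicate 2, Stat2 (-0.95, edgeR adjusted p = 0.00950), Stat3 (-0.63, 0.0317) and Socs3 (-1.81, 0.00248) passed between days 14 and 28 instead. In either fit, the single day 14 library was assumed to vary like the other groups. When day 14 was set against the mean of days 5 and 28, 0 of 8 genes passed with edgeR, DESeq2 or limma, against 0.0156% of all genes with edgeR, and the lowest adjusted p was 0.568, with 0 of 8 under 0.05 unadjusted, against 12.6% of all genes.

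**Figure D3:**
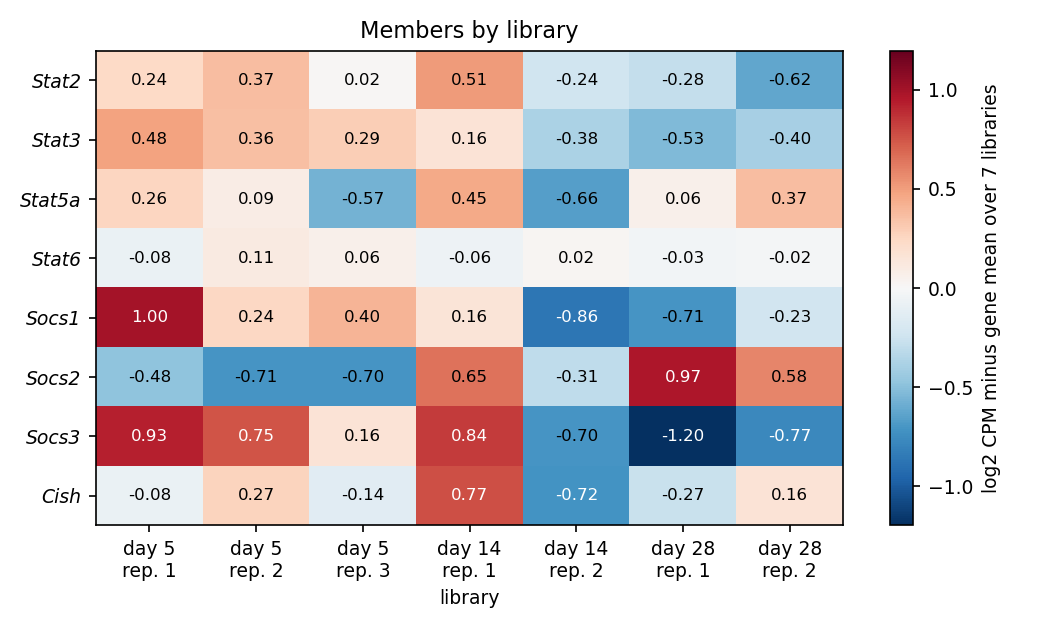
Log2 CPM of each gene (rows) in each library (columns), after subtraction of the gene's mean over the 7 libraries, with red for higher and blue for lower. Day 14 replicate 1 is above the mean and replicate 2 below it for 7 of the 8 genes, and the row of Stat6 is close to 0 throughout.

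Ratios within a library do not depend on its depth. FPKM of Socs3 was 8.45, 8.09 and 5.65 times that of Stat3 at day 5, 9.87 and 4.94 times at day 14, and 3.89 and 4.79 times at day 28. This ratio of an inhibitor to its STAT was lower in both day 28 libraries than in every other library. The ratio of Stat6 to Stat3 was 0.642, 0.792 and 0.805 at day 5, 0.811 and 1.25 at day 14, and 1.33 and 1.22 at day 28. All day 5 libraries and day 14 replicate 1 were below 1, whereas day 14 replicate 2 and both day 28 libraries were above it. Socs2 stood to Stat5a at 0.0740, 0.0699 and 0.111 at day 5, 0.149 and 0.159 at day 14, and 0.233 and 0.151 at day 28, so that all later libraries exceeded those of day 5. Cish to Stat5a ran from 0.225 to 0.385, and both day 14 libraries (0.357 and 0.271) were above both of day 28 (0.227 and 0.253), while day 5 overlapped with each. Socs1 to Stat2 ran from 0.427 to 1.11, with overlap between days 5 and 28. The ratios are given as a description, without a test.

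**Figure D4:**
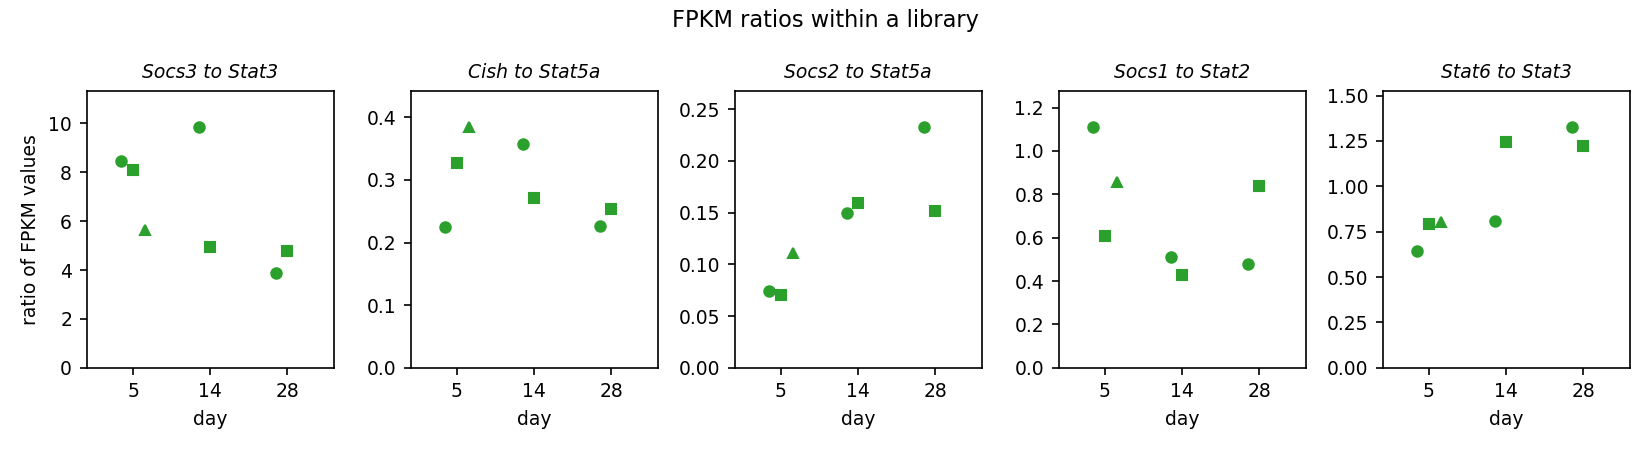
Ratio of the FPKM of 2 genes within a library (y axis, linear, from 0) against the day after nerve repair (x axis), with 1 panel per pair and 1 point per library (circle, square and triangle for replicates 1, 2 and 3). Socs3 to Stat3 is 5.65 or more at day 5 and 4.79 or less at day 28, and Stat6 to Stat3 crosses from below 1 to above 1.

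The rest of the pathway was described with gene lists, beside a median log2 fold change of 0.03 over all genes. Of the 4 JAK kinases, 1 fell from day 5 to day 28, against 7.51% of all genes, and the others did not pass. Jak3, which serves receptors with the common gamma chain, was at 41.3 ± 3.72 FPKM (SD, n = 3) at day 5 and 20.6 ± 4.42 (SD, n = 2) at day 28 (log2 fold change -1.0, edgeR adjusted p = 0.00633), a call lost without day 28 replicate 1. Jak1 was the most abundant of the 4 at 52.2 to 67.5 FPKM, with a log2 fold change of -0.28 (SE 0.12, edgeR adjusted p = 0.137). Tyk2, a kinase of the type I interferon receptor, had one of -0.03 (SE 0.13, edgeR adjusted p = 0.891). Among 12 other inhibitors of the pathway, such as phosphatases and PIAS proteins, 1 fell, a share near that of all genes. This was Usp18, which restrains the type I interferon receptor and is itself an interferon target, with 33.0 ± 3.10 FPKM (SD, n = 3) at day 5 and 9.26 ± 0.744 (SD, n = 2) at day 28 (log2 fold change -1.81, edgeR adjusted p = 0.00336).

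Of 33 receptor genes that signal through JAK kinases, 31 were tested, and 4 rose and 7 fell from day 5 to day 28, against 7.74% and 7.51% of all genes. Il27ra rose from 0.609 ± 0.372 FPKM (SD, n = 3) to 3.86 ± 0.0186 (SD, n = 2), with a log2 fold change of 2.69 (edgeR adjusted p = 0.00712). Il11ra1 rose from 6.23 ± 0.544 to 20.2 ± 2.79 FPKM (log2 fold change 1.71, edgeR adjusted p = 0.00248). Il15ra fell (log2 fold change -1.31, edgeR adjusted p = 0.0164), as did Il21r (-1.09, 0.00200), Il4ra, the receptor chain for IL4 and IL13 (-1.05, 0.0314), and Ifnar1, a chain of the type I interferon receptor (-0.48, 0.0491). Of these, Il11ra1 and Il21r passed whichever library was left out, and Il27ra was lost without day 28 replicate 1 alone. Il15ra was lost without day 5 replicate 1 or either day 28 library, and Il4ra and Ifnar1 without any library of day 5 or 28. The counts were 1 risen and 1 fallen without day 28 replicate 1, 3 and 3 without day 28 replicate 2 or day 5 replicate 1, and 3 and 4 without day 5 replicate 2 or 3.

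Transcripts known as targets of the individual STATs were counted separately. The 17 STAT3 targets had 2 that rose and 3 that fell from day 5 to day 28, against 7.74% and 7.51% of all genes, with a median log2 fold change of -0.32. Myc, a growth regulator, rose (log2 fold change 0.90, edgeR adjusted p = 0.0215), as did the immediate early gene Fos (0.77, 0.0301), whereas Bcl3, a regulator of NF-kB, fell (-1.11, 0.0202), as did Il4ra, which is also on the receptor list. Myc was lost without any of the day 5 libraries or day 28 replicate 2, and Fos and Bcl3 without day 5 replicate 1 or 2 or either day 28 library. Leaving out a library gave 0 to 2 that rose and 0 to 8 that fell, with 8 without either day 14 library. The 10 STAT5 targets had 1 of each, which is near the shares of all genes. These were Igf1, a growth factor (log2 fold change 1.07, edgeR adjusted p = 0.00280), and Bcl2l1, a survival factor (-0.63, 0.0383). Igf1 passed whichever library was left out, and Bcl2l1 was lost without any library of day 5 or 28.

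Of 17 STAT6 targets tested, 6 rose and 3 fell from day 5 to day 28, against 7.74% and 7.51% of all genes, with a median log2 fold change of 0.58. Retnla, a secreted product of alternative activation, was at 5.18 ± 1.71 FPKM (SD, n = 3) at day 5, 87.8 ± 41.6 (SD, n = 2) at day 14 and 73.1 ± 31.6 (SD, n = 2) at day 28 (log2 fold change from day 5 to day 28 3.85, edgeR adjusted p = 0.000931). Mgl2, a lectin of the same state, also rose (log2 fold change 2.13, edgeR adjusted p = 0.00191). Arg1, which breaks down arginine, went from 849 ± 175 FPKM (SD, n = 3) to 329 ± 82.2 (SD, n = 2) and fell (log2 fold change -1.35, edgeR adjusted p = 0.00485), and the mannose receptor Mrc1 fell as well (-0.73, 0.0347). Retnla, Mgl2 and Arg1 passed whichever library was left out, and Mrc1 was lost without any library of day 5 or 28. Without day 5 replicate 1, day 5 replicate 3, day 28 replicate 1 or day 28 replicate 2, the numbers were 3 risen and 1 fallen, and without day 5 replicate 2 they were 6 and 1.

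The list of ISGF3, the complex of STAT2, was lower at day 28 throughout. Of its 19 genes, 15 fell from day 5 to day 28, against 7.51% of all genes, none rose, and all 19 had a negative log2 fold change, with a median of -1.42. The 15 include Irf9, the partner of STAT2 in the complex, and Usp18, which was also counted among the inhibitors. Oas3, a sensor of double-stranded RNA, was at 48.3 ± 10.2 FPKM (SD, n = 3) at day 5 and 7.17 ± 0.856 (SD, n = 2) at day 28 (log2 fold change -2.74, edgeR adjusted p = 0.00302). Irf7, which amplifies interferon production, went from 522 ± 88.2 FPKM (SD, n = 3) to 98.2 ± 9.42 (SD, n = 2), with a log2 fold change of -2.40 (edgeR adjusted p = 0.00267). Both passed whichever library was left out. The number that fell was 7 without day 28 replicate 1 and 4 without day 28 replicate 2. From day 5 to day 14, 0 of the 19 passed with edgeR, DESeq2 or limma, with 0 under 0.05 unadjusted. From day 14 to day 28, 0 passed with edgeR or limma, 12 with DESeq2, and 16 had an unadjusted p under 0.05 with edgeR. Over all 12858 genes, DESeq2 called 346, and 12.2% had an unadjusted p under 0.05 with edgeR. All 19 were higher in day 14 replicate 1 than in replicate 2, by a median of 1.20 on the log2 scale, and without day 14 replicate 1 the numbers that fell were 11 in the first step and 3 in the second. Without day 14 replicate 2, 18 fell in the second step.

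**Figure D5:**
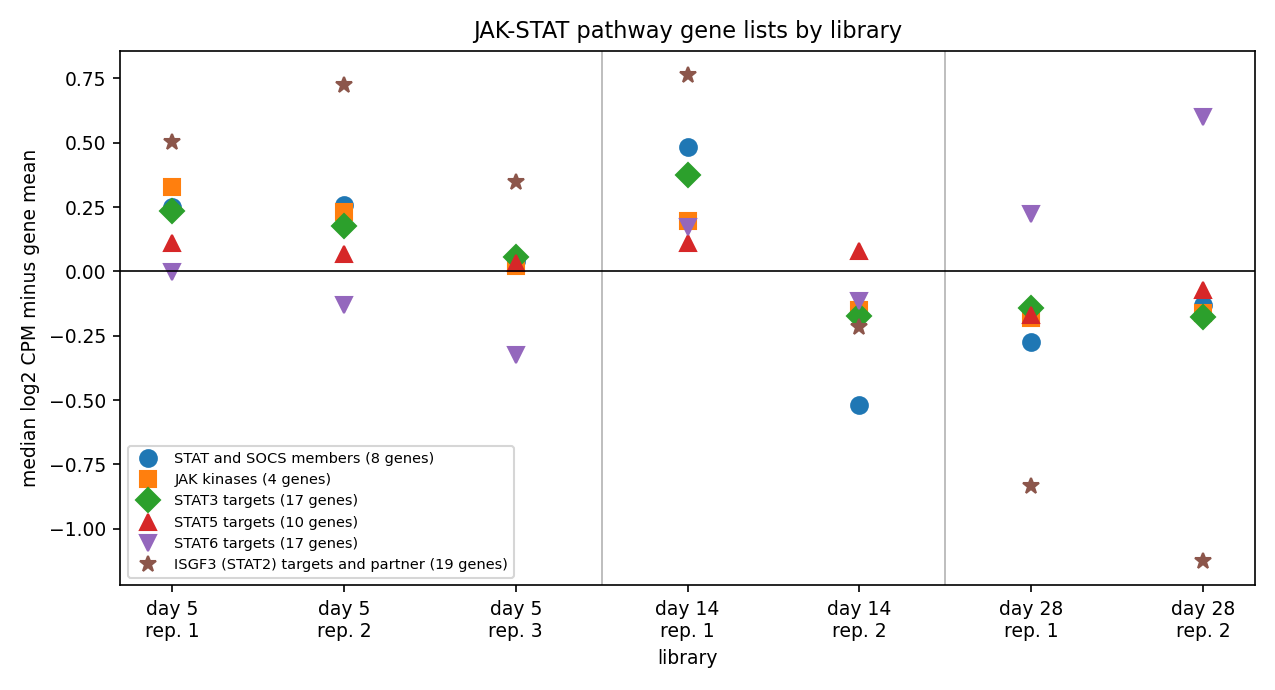
Median over the genes of a list of log2 CPM, after subtraction of each gene's mean (y axis), in each library (x axis), with 1 symbol per list. The ISGF3 list runs from 0.35 to 0.73 at day 5 to -0.83 and -1.13 at day 28, and stands at 0.76 and -0.22 in day 14 replicates 1 and 2. The STAT and SOCS genes stand at 0.48 and -0.52 in those 2 libraries.

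The genes whose pattern over the 7 libraries was most like that of Stat3 and of Socs3 were found by the root mean square difference of centred log2 CPM. For Stat3, whose own SD was 0.42, they were Nr1h3, the oxysterol receptor LXR alpha (difference 0.0393), Lcp2, the adaptor SLP-76 (0.0617), and Fyb, its binding partner (0.0643). Nr1h3 was at 39.6, 38.2 and 34.1 FPKM at day 5, 31.1 and 22.9 at day 14, and 19.8 and 21.3 at day 28. For Socs3, whose own SD was 0.88, the nearest were Mss51 (0.198), the MHC class I gene H2-Q8 (0.199) and the ubiquitin-like interferon target Isg15 (0.207). Mss51 rested on only 13 to 42 fragments in a library and did not pass from day 5 to day 28 (edgeR adjusted p = 0.199). H2-Q8 has close paralogs and is uncertain for that reason. Isg15 was at 148, 146 and 109.7 FPKM at day 5, 138 and 45.3 at day 14, and 34.1 and 34.3 at day 28. Its day 14 replicate 1 was close to day 5 and replicate 2 close to day 28. This likeness to Socs3 follows from the way Isg15 was picked and is no separate observation.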

How the data were processed

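RNASeq of 7 libraries of sorted macrophages was analysed. Per the submitters' processing notes, the authors trimmed reads with cutadapt 1.8, mapped them to mm10 with TopHat2 2.0.13 and quantified genes with Cuffdiff 2.2.1. How strand and reads with several matches were handled is not given in the sources used here. The authors deposited estimated counts (expected counts of fragments per gene, 1.01% of them not whole), a scaled signal that is these counts times 1 factor per library, and FPKM values, which they normalized for length and library size.

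Deposited expected counts were rounded, scaled by TMM and filtered with filterByExpr on the groups, which left 12858 genes. A quasi-likelihood F test in edgeR 4.0.16 (R 4.3.3) compared the days in a single model of all 7 libraries without covariates, with Benjamini-Hochberg adjustment and a threshold of 0.05. The SE is the size of the log2 fold change divided by the square root of F, an approximation. Log2 CPM used a prior count of 2. Levels are the deposited FPKM. Alternatives were DESeq2 1.42.0, limma 3.58.1 on log2(FPKM + 1) and log2(FPKM + 0.1), RLE and Cuffdiff scaling, no filter, a replicate block, fits on 2 time points, an adjusted p under 0.01 and leaving out each library. The block with the day 28 numbers swapped was chosen after seeing the data. Tests were tried on simulated counts. Plots and counts of motifs used Python 3.11.15.

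The text names the 8 genes, the 2 strongest risers and 2 strongest fallers of each list from day 5 to day 28 among those past the threshold, any receptor or JAK gene, and 3 genes with the nearest pattern for 1 STAT and 1 SOCS gene. Stat5b and the sort markers Emr1, Cd14, Itgam, Fcgr2b and Fcgr3 were added after their values were seen. The list of other STAT and SOCS family genes is not reported here. The rule for the members uses no measured value, but members and lists were chosen with earlier results of these data known. Positions and shared 75-base windows were taken from GENCODE M21 on GRCm38. Library totals ran from 18027190 to 35247116 fragments, and precision was judged from the spread between 2 or 3 libraries.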

Additional observations from a re-analysis of the deposited data

How the results depend on the processing

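Days 14 and 28 had 2 libraries each, which limits every comparison, and Socs2 and Cish rested on few fragments. From day 5 to day 28, the number of the 8 genes past the threshold was 3, and it was 5 with DESeq2, without the expression filter and in the fit of the 2 time points alone, where Stat2 and Socs1 were added to Stat3, Socs2 and Socs3. It was 0 at an adjusted p under 0.01. Both scalings and both limma fits gave 3. Leaving out 1 library gave 0 to 5, with 0 without day 28 replicate 1. Between days 5 and 14, the number was 0 in the edgeR test and 1 without the filter (Socs1), and leaving out a library gave 0 to 3. Between days 14 and 28, it was 1 without the filter (Socs3), and 0 to 3 when a library was left out. Over all genes, DESeq2 called 1392, 346 and 2485 in the 3 pairwise comparisons in order of time, with day 28 vs day 5 last, and edgeR 614, 8 and 1960. Without the filter the numbers were 1429, 390 and 2466. limma on log2(FPKM + 1) called 252, 0 and 1802, and on log2(FPKM + 0.1) 277, 0 and 1744. The fit of 2 time points called 315, 0 and 2778, and an adjusted p under 0.01 left 24, 0 and 597. Leaving out a library gave 52 to 1728, 0 to 629 and 452 to 2746. For day 14 against the mean of the other days, the count of 2 became 200 with DESeq2, 229 without the filter and 0 with either limma fit. The cause was not tested.

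Whether replicate numbers pair the libraries is not stated in the sources used here, and the following correlations cannot decide it. In a group of 2 libraries, the deviations of a gene from the group mean mirror each other. Deviations of same-numbered libraries correlated at 0.402 and 0.058 between days 5 and 14, -0.138 between days 14 and 28, and -0.049 and 0.029 between days 5 and 28. With the replicate block, 1 of the 8 genes passed between days 5 and 28 (Stat3), and 6, 0 and 735 genes passed overall. With the day 28 numbers swapped in the block, 1 of the 8 genes passed at day 14 and 4 at day 28 against day 5, and 357, 63 and 1579 genes overall.

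The directions that reversed belonged to changes that had not passed the threshold. Stat5a from day 5 to day 14 had a log2 fold change of 0.03 that became -0.029 and -0.035 with limma at the larger and smaller pseudocount and -0.22 with the replicate block. Leaving out a library gave -0.63 to 0.49 for Stat5a, -0.46 to 0.30 for Stat2, -0.76 to 0.75 for Cish and -1.35 to 0.19 for Socs3 from day 5 to day 14. The ranges were -0.62 to 0.40 for Socs1, -0.83 to 0.69 for Cish, -0.23 to 0.89 for Stat5a and -0.051 to 0.026 for Stat6 from day 14 to day 28, and -0.31 to 0.14 for Cish from day 5 to day 28. Over all alternatives for single genes, 335 values kept direction and side of the threshold, 18 newly passed it, 15 no longer did and 16 reversed.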
